A study of Oncorhynchus mykiss with 525 samples.

Results

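The 60 gene IDs described here were near-silent in solvent-treated rainbow trout gill cells and carried counts in each of 3 strong exposures. They were chosen from 44260 Ensembl gene IDs by their measured values. An ID counted as near-silent when it had under 5 CPM (counts scaled to a common well total) in the summed solvent wells of both solvent tables, which held for 28420 IDs. The 60 with the largest minimum CPM over the highest concentrations of dip, met and col were then taken. Wells with low totals and the 4 most counted IDs, which held 46.3% of all counts, were left out first, so every CPM below is relative to a total without those 4 IDs unless stated. By the values that chose the IDs, the description "switched on" held for 1 of the 60, ENSOMYG00000004695. In wells that the rule did not use, this ID had counts in 5 of 6 wells of col concentrations 2 to 4. It had none in dip or met at concentrations 2 to 8. The other 59 had 1.24 to 4.96 CPM in the solvent wells of either batch and rested on 1 to 15 counts in each strong exposure.

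RTgill-W1 is an epithelial cell line from rainbow trout gill. Cells were exposed for 24 h in 96-well plates to a pesticide or to the solvent DMSO, after which RNA was tagged by well, pooled and sequenced to give a count for each gene ID. The strong exposures were dip at 57.64 (3 wells, batch 2), met at 56.47 (3 wells, batch 1) and col at 3.99 (2 of 3 wells kept, batch 1), in concentration units that the labels do not give; each of these 3 was diluted 3-fold per step, from concentration 1, the highest, to concentration 8. The reference wells were concentrations 6 to 8 of the same chemical (9 wells each) and the solvent wells, 24 in batch 1 and 15 in batch 2. A header line of the deposited solvent table marks 12 of those 24 as batch 2, while their libraries and plates put all 24 on the plates of batch 1, which is followed here. The replicates are 3 cell passages of 1 line, each passage on its own plate per batch. The labels give the chemicals only by these short names. The chemicals were dissolved in DMSO or water, which the labels do not tell apart, and within a chemical the concentration coincides with the plate row, so the effects of the 2 cannot be told apart.

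Genes that are nearly silent in untreated cells and turn on under chemical stress are a familiar readout in fish toxicology. Cytochrome P450 1A, which oxidises planar aromatic chemicals, and metallothioneins, which bind metals, are the textbook cases. In a count table such a gene shows as an ID at or near 0 in control wells and with many counts in exposed ones. None of the 44260 IDs could be paired with a gene name here, so no role is given to any of the 60, no pathway or marker list could be read, and the identity of the cell line could not be checked against its markers.

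The 19 chemicals and the solvent gave 501 wells, of which 487 were kept, with totals of 24620 to 786151 counts and a median of 240948 over all wells. The kept wells of col concentrations 1 to 4 lie at the low end, with totals of 60123 to 123582 counts, and replicate 2 of col fell under the minimum at each of these 4 concentrations. Fewer cells in a well and less RNA of a gene per cell cannot be told apart from these counts.

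The minimum CPM over the 3 strong exposures was 176 for ENSOMYG00000004695, 24.3 for the next ID, ENSOMYG00000044572, and 9.56 for the last. At that last value 28 IDs were tied, of which 10 lie inside the list and 18 outside, and the next lower value was 8.11 CPM. On the side of the solvent limit, the highest solvent level of a member was 4.96 CPM and the nearest ID outside the limit with enough counts in the strong exposures had 5.25 CPM. Of the 28420 near-silent IDs, 2355 had no count in any kept well and 657 had at least 1 count in each of the 3 strong exposures.

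The values that chose ENSOMYG00000004695 stood apart from those of the other 59. It had 92 counts in dip concentration 1 (176 CPM), 27 in met concentration 1 (219 CPM) and 28 in col concentration 1 (391 CPM), against 0 counts in the 24 solvent wells of batch 1 and 4 counts in the 15 solvent wells of batch 2 (1.65 CPM). The 0 in batch 1 allows a level of up to 1.05 CPM (3 counts of the summed total, counting error only). By well, dip concentration 1 had 45, 37 and 10 counts, which are 314, 138 and 89.0 CPM. Met concentration 1 had 17, 0 and 10 counts, which are 300, 0 and 304 CPM, and the well at 0 had a total of 48188 counts with the 4 most counted IDs included, and 3 counts there are 89.1 CPM. Col concentration 1 had 15 and 13 counts, which are 375 and 411 CPM. Thus 7 of the 8 strong wells carried this ID, while 38 of the 39 solvent wells did not, and the exception was a single solvent well with 4 counts.

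The other 59 carried few counts each. In dip concentration 1 they had 5 to 15 counts (median 7), which are 9.56 to 28.7 CPM. In met concentration 1 they had 2 to 8 counts (median 3), which are 16.2 to 64.9 CPM, and 26 of the 60 had exactly 2. In col concentration 1 they had 1 to 7 counts (median 2), which are 14.0 to 97.7 CPM, and 26 of the 60 had exactly 1 and 20 exactly 2. The solvent wells of batch 1 gave 5 to 14 counts per ID (1.75 to 4.90 CPM, median 3.85), and those of batch 2 gave 3 to 12 counts (1.24 to 4.96 CPM, median 3.30). In either batch a solvent level of 0 occurred for ENSOMYG00000004695 alone, and 56 of the 60 had at least 3 CPM in the batch where they were higher, under the limit of 5. The 60 were thus taken mostly from the upper end of the near-silent range.

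**Figure D1:**
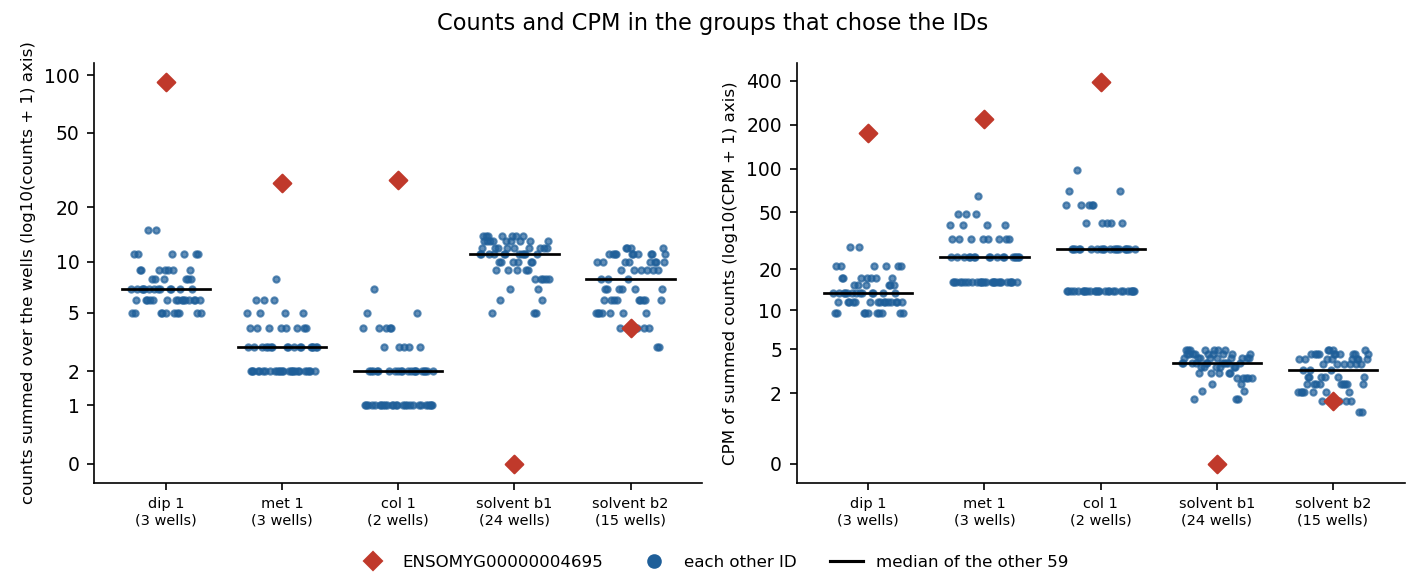
Counts (left) and CPM (right) of each of the 60 IDs, summed over the wells of the groups that chose them, on log10(value + 1) axes; b1 and b2 are the solvent wells of batch 1 and batch 2. The diamond is ENSOMYG00000004695, each dot is another ID, and lines are the medians of the other 59, at 7, 3 and 2 counts in the strong exposures and at 11 and 8 counts in the solvent wells.

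The second ID, ENSOMYG00000044572, shows the pattern of the 59. It had 15 counts in dip concentration 1 (28.7 CPM), 3 in met concentration 1 (24.3 CPM) and 2 in col concentration 1 (27.9 CPM), against 11 counts in the solvent wells of batch 1 (3.85 CPM) and 9 in those of batch 2 (3.72 CPM). It was the only one of the 60 with a count in all 8 strong wells; 7 had a count in 7 of them and 52 in 4 to 6. In the wells of col concentrations 2 to 4, which the rule did not use, it had 3 counts in 1 well and 0 in the other 5, against 1 count each in 2 of the 9 wells of col concentrations 6 to 8.

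No ID in the table had the same counts as one of the 60 in every kept well, so none is an exact duplicate of another ID. Between members, Pearson's r over the 487 kept wells was at most 0.237, with a median of 0.0510 over 1770 pairs, as a description of sparse counts that share wells and depths.

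Whether the rise goes beyond the wells that chose the IDs was read from concentrations 2 to 4 of col and concentration 2 of dip and met, each against concentrations 6 to 8 of the same chemical. ENSOMYG00000004695 had counts at col concentrations 2, 3 and 4 and none at the lower ones. It had 6 and 4 counts at concentration 2 (231 and 167 CPM), 16 and 0 at concentration 3 (487 and 0 CPM) and 13 and 30 at concentration 4 (383 and 587 CPM), for replicates 1 and 3. All 12 wells of col concentrations 5 to 8 had 0 counts, where 3 counts would be 13.2 to 89.7 CPM. In 5 of the 6 wells the ID was thus higher than in any lower well, and replicate 3 at concentration 3, where 3 counts are 78.3 CPM, does not separate from them.

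The pooled level of ENSOMYG00000004695 was 200 CPM at col concentration 2, 225 at concentration 3 and 505 at concentration 4, against 0 of 1350294 counts at concentrations 6 to 8. Set against 3 counts over those 9 wells, that is 90.2-fold higher at concentration 2, 101-fold at concentration 3 and 227-fold at concentration 4. These folds bound the reference side only. They leave out the error of the exposed wells, of which 1 at concentration 3 had 0 counts. The order of the 3 concentrations does not follow the dose, and the wells of concentration 3, at 0 and 487 CPM, span those of concentration 2, while both wells of concentration 4 lie above both of concentration 2. In edgeR's quasi-likelihood test over all IDs that passed the count filter, its adjusted p was 6.28e-09, 1.17e-12 and 1.19e-24 at concentrations 2, 3 and 4. The ID passed that filter through its counts at concentrations 2 to 4, and without the filter the edgeR adjusted p was 4.84e-07, 5.28e-10 and 2.47e-19. With DESeq2 the adjusted p was 0.312, 0.290 and 0.233, with fitted log2 fold changes of 7.49, 7.75 and 8.65 (SE 4.85, 4.85 and 4.84). The edgeR log2 fold changes were 6.74, 7.18 and 8.31, for which the test gives no standard error. With all reference wells at 0, the fitted values of both tools are no bounds. Those of edgeR depend on its prior count, while DESeq2 was run without a prior on the fold change. So the call at single concentrations differed between the tools, for an ID whose reference wells were all at 0. The near-silent ID under Other observations had comparable levels there and 1 count in the reference wells. DESeq2 gave that ID an SE of 0.962, 0.951 and 0.924 at concentrations 2, 3 and 4. It was picked for levels like those of ENSOMYG00000004695 over groups that include these wells, so its values are a description and no test. The trend of ENSOMYG00000004695 over concentrations 8 to 2 was called by edgeR (adjusted p 1.88e-11) and by DESeq2 (adjusted p 0.00396). Without replicate 1, the 1 remaining well at concentration 3 has 0 counts and the call there is lost, with an adjusted p of 1.00 by edgeR.

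An exact permutation test over wells, prompted by these same values, gave a two-sided p of 0.001998 over 5005 arrangements. It set the 6 wells of col concentrations 2 to 4, with a mean of 309 CPM and counts in 5 of 6, against the 9 wells of concentrations 6 to 8, with counts in 0 of 9. The 6 wells belong to 2 passages, and the third passage has no kept well at these concentrations. That test exchanges wells between passages. With wells exchanged only within those 2 passages, 6 wells at concentrations 2 to 4 against 6 at concentrations 6 to 8, the exact two-sided permutation p was 0.02 over 400 arrangements.

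**Figure D2:**
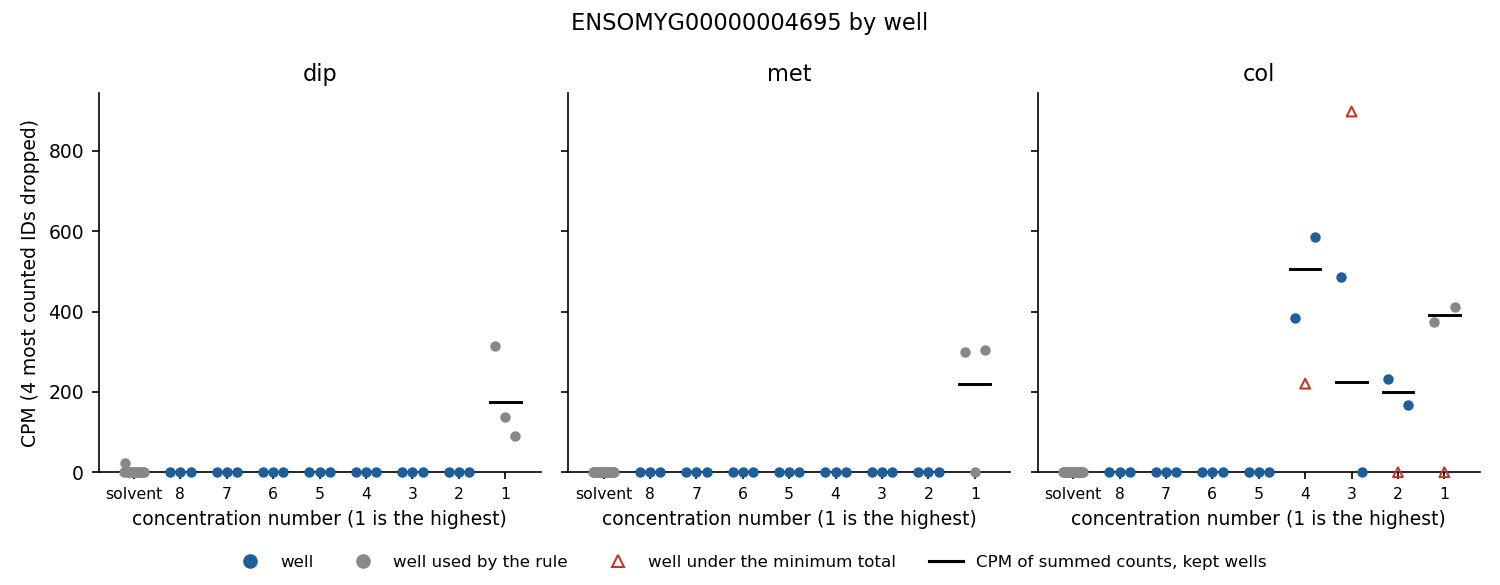
CPM of ENSOMYG00000004695 in each well of dip, met and col, by concentration number from the solvent wells of the chemical's batch on the left to concentration 1 on the right. Filled points are kept wells (grey where the rule used them), open triangles are wells under the minimum total, and lines are the CPM of summed counts; the ID is at 0 in dip and met at concentrations 8 to 2 and at 167 to 587 CPM in 5 of 6 wells of col concentrations 4 to 2.

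In dip and met the same ID was seen at the highest concentration alone. It had 0 counts in all 12 wells of dip concentrations 2 to 5, where 3 counts would be 10.1 to 28.8 CPM, and in all 9 wells of concentrations 6 to 8. In met it had 0 counts in all 12 wells of concentrations 2 to 5, where 3 counts would be 14.2 to 32.9 CPM, and again in the 9 wells of concentrations 6 to 8. The levels at concentration 1, a single 3-fold step above, were the 176 CPM in dip and 219 CPM in met given above, which chose the ID and carry no test.

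Outside dip 1, met 1 and col 1 to 4, ENSOMYG00000004695 was rare. It was seen in 8 of the other 473 kept wells, with 45 counts in all, against 12 of the 14 kept wells of those 6 groups with 216 counts. The 8 wells were scattered over 8 groups and carried 1 to 13 counts each. The 2 highest were 13 counts in 1 well of mbz concentration 2 (66.4 CPM) and 11 counts in 1 well of ata concentration 8 (141 CPM). No group outside the 6 had it in more than 1 of its kept wells. The signal was thus not strictly limited to strong exposures, since the ata well is at that chemical's lowest concentration.

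Counting the 60 in the tests gave few calls. At col concentration 2, 1 of the 60 was called higher, where 2.05% of all 7216 tested IDs were. At concentration 3, 1 was called, against 3.35% of all tested, and at concentration 4, 2 were called, against 3.26%. The trend over concentrations 8 to 2 called 2, against 4.13%. Only 6 of the 60 had enough counts to pass the filter in col, and without the filter, with all 60 tested, 1 was called at each of the 3 concentrations, against 0.167%, 0.292% and 0.305% of all 31803 tested IDs at concentrations 2, 3 and 4. With the replicate passage as a block, which pairs the wells of a plate, 3 were called at concentration 3 in place of 1, against 3.52% of all tested. No member was called lower in any fit. ENSOMYG00000004695 was the call at concentrations 2 and 3.

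The second call at col concentration 4 was ENSOMYG00000020635, named because it was called. It had 2 and 3 counts there (58.9 and 58.7 CPM), against 3 counts over the 9 wells of concentrations 6 to 8, in 2 of those wells. The ratio of summed levels was 26.5, with an exact 95% counting interval of 5.15 to 170. ENSOMYG00000020635 also passed the count filter only through its counts at concentrations 2 to 4, where it is high. Its log2 fold change was 3.96 (edgeR adjusted p 0.0271), and its trend slope was 0.73 log2 units per step (edgeR adjusted p 0.0222). Divided by the root of their F statistics, these give errors of 1.31 and 0.24, which are not standard errors from the fit. A well of concentration 5 also had 2 counts (59.8 CPM), as high as the wells of concentration 4. The call at concentration 4 was lost without the count filter and by DESeq2. With any 1 replicate left out, the count of the ID fell below that minimum total. It was then not tested, so those settings do not bear on the call.

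In dip and met none of the 60 was called. At dip concentration 2, 0 of 60 were called higher, where 0.178% of all 11809 tested IDs were, and in the dip trend 0, against 0.186%. At met concentration 2, 0 of 60 were called, against 0.102% of 9832 tested IDs, and in the met trend 0, against 0.0712%. Of the 60, 4 passed the filter in dip and 2 in met. With the passage as a block the count of members stayed 0, against 0.432% at dip concentration 2, 0.373% in the dip trend, 0.346% at met concentration 2 and 0.142% in the met trend. At an unadjusted p under 0.05 the edgeR count of members higher was also 0 in these 4 tests, and DESeq2 called 0. Over all tested IDs, in either direction, edgeR gave such a p to 872 at dip concentration 2 and 865 in the dip trend. In met it did so for 472 at concentration 2 and 421 in the trend. DESeq2 called 7 and 9 of all IDs higher in dip, and 6 and 4 in met. For the other 16 chemicals, the highest concentration with at least 2 kept wells was set against the chemical's own lowest ones. There 0 of the 60 were called higher by edgeR, where 0.0532% of all chemical and ID pairs were, and 0 with the passage as a block, against 0.145%. At an unadjusted p under 0.05 the edgeR count of members higher was 4 over the chemicals, 1 each in cln, dic, diq and gly. Over all tested IDs, in either direction, such a p went to 533 of 9313 in cln and 931 of 14618 in dic. In diq it went to 600 of 12101 and in gly to 635 of 8293. DESeq2 called 0 members, where it called from 0 IDs higher in ata to 15 in dic. Between 0 and 24 of the 60 passed the filter per chemical, with a median of 3.

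As a sum, the 59 other IDs were higher in the col wells that the rule did not use. At col concentration 2 the 2 wells had 423 and 962 CPM, at concentration 3 they had 1066 and 600 CPM, and at concentration 4 they had 560 and 978 CPM, against 120 to 408 CPM in the 9 wells of concentrations 6 to 8. Each of the 6 wells lay above each of the 9 with totals that leave out the 4 most counted IDs, but not with totals that include those IDs or are scaled by TMM. The pooled sums were 681, 815 and 811 CPM at concentrations 2, 3 and 4, against 244 CPM at concentrations 6 to 8, which are ratios of 2.80, 3.34 and 3.33. Col concentration 5 had 279 CPM, a ratio of 1.15, and its 3 wells, at 168 to 538 CPM, overlapped with the lower concentrations.

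Spread over single IDs this was a matter of a few counts each. Over the 6 wells of col concentrations 2 to 4 the 59 had 0 to 10 counts apiece with a median of 2 (9.70 CPM), against 0 to 15 counts with a median of 5 (3.70 CPM) over the 9 wells of concentrations 6 to 8. In all, 45 of the 60 had a higher pooled CPM in col concentrations 2 to 4, and 10 had no count there. Among 15324 other near-silent IDs with a count in these wells, 47.6% were higher, and 7813 had no count at concentrations 2 to 4. Among the IDs that are not near-silent and had a count there, 47.8% were higher. The 2 shares are not like for like, since the 60 were taken from IDs near the solvent limit, and a count of 1 at col concentrations 2 to 4 is already 4.85 CPM.

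**Figure D3:**
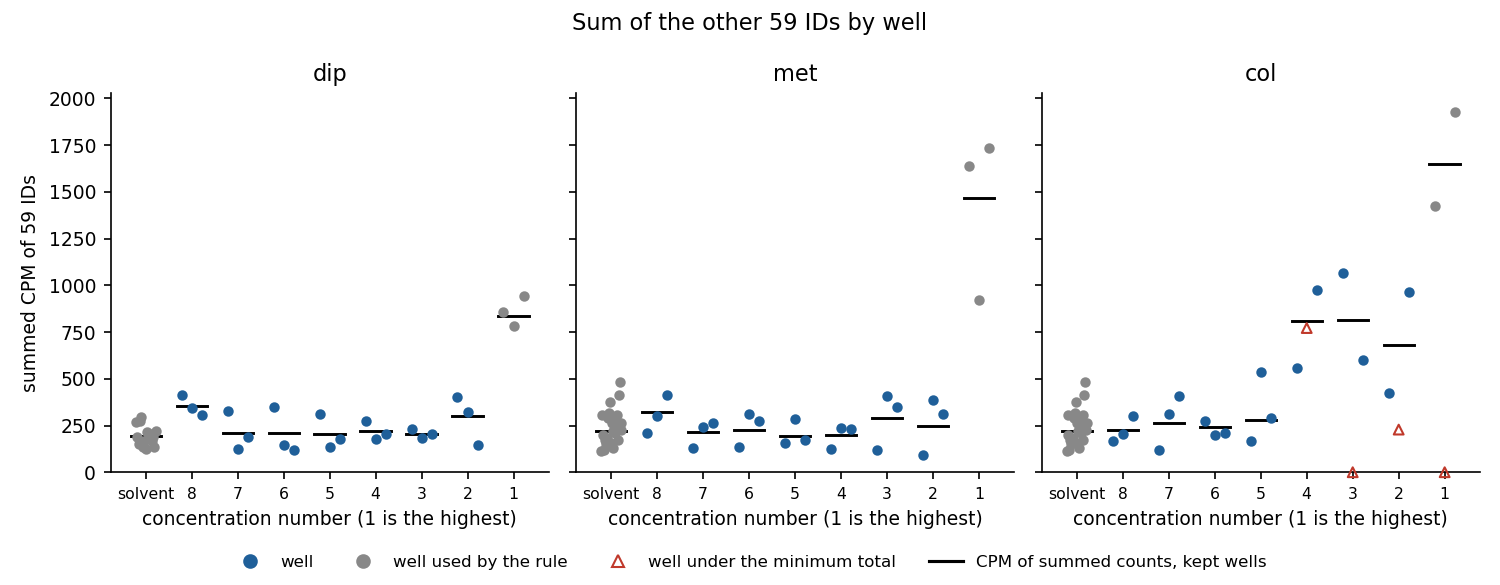
Summed CPM of the 59 IDs other than ENSOMYG00000004695 in each well, by concentration number from solvent on the left to concentration 1 on the right. Filled points are kept wells (grey where the rule used them), open triangles are wells under the minimum total and lines are the CPM of summed counts; the 6 kept wells of col concentrations 4 to 2 lie at 423 to 1066 CPM, above the 120 to 408 CPM of concentrations 8 to 6 with this total, while dip and met at concentration 2 overlap with their lower concentrations.

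The other near-silent IDs were higher in the same col wells. The 28360 near-silent IDs outside the list took 6.72%, 6.79% and 7.06% of the counts at col concentrations 2, 3 and 4, against 2.73% at concentrations 6 to 8, which are ratios of 2.46, 2.48 and 2.58. By well the share was 4.43% to 8.81% at concentrations 2 to 4, against 2.02% to 3.58% at concentrations 6 to 8, without overlap. As a share of all counts, the 4 most counted IDs included, it was 1.22% to 3.94% against 0.984% to 2.40%, and with TMM totals 2.92% to 6.54% against 2.36% to 3.86%, so that the wells overlapped under both. The 59 members thus had ratios of 2.80 to 3.34 beside 2.46 to 2.58 for the near-silent IDs that the rule did not take.

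These ratios depend on which total they are taken of. The 4 most counted IDs, left out of the CPM, held 64.9%, 63.3% and 64.2% of all counts at col concentrations 2, 3 and 4, against 46.0% at concentrations 6 to 8. As CPM of all counts, these 4 IDs included, the ratio of the 59 was 1.82, 2.27 and 2.20 at concentrations 2, 3 and 4, and that of the other near-silent IDs was 1.60, 1.69 and 1.71. With totals scaled by TMM, which assumes that most IDs do not change, the ratio of the 59 was 1.46, 2.01 and 2.23, and that of the other near-silent IDs 1.28, 1.49 and 1.73. For both sets the direction was the same under all 3 totals. The pooled ratio of the IDs that are not near-silent was 0.958, 0.957 and 0.954 at concentrations 2, 3 and 4 without the 4 IDs. It was 0.623, 0.651 and 0.632 with them, and 0.500, 0.575 and 0.638 with TMM totals. The wells did not separate in the same way. With the 4 IDs included, the 59 had 134 to 383 CPM at concentration 2, 251 to 343 at concentration 3 and 154 to 438 at concentration 4, against 60.8 to 220 CPM at concentrations 6 to 8, and concentrations 2 and 4 overlapped with these. Under TMM they had 255 to 521, 388 to 719 and 404 to 726 CPM at concentrations 2, 3 and 4, against 141 to 441 CPM, and all 3 overlapped.

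**Figure D4:**
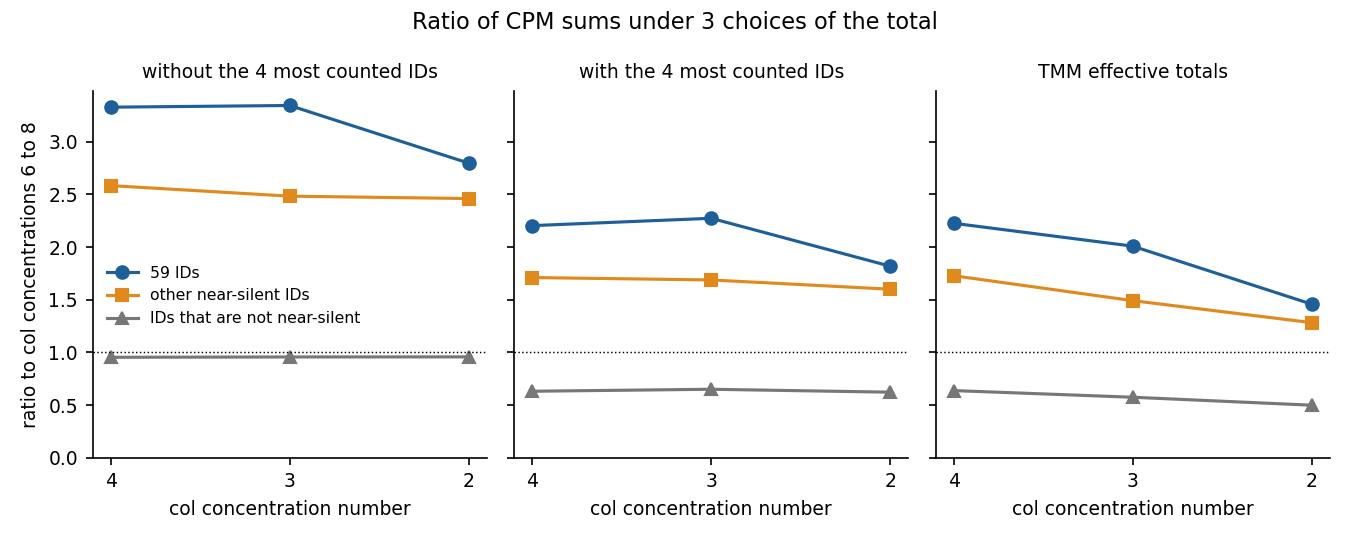
Ratio of the pooled level at col concentrations 4, 3 and 2 to that at concentrations 6 to 8, for the 59 IDs, the other near-silent IDs and the IDs that are not near-silent, with each of 3 totals as the denominator; points are single ratios of summed counts with no error bar. The 59 lie at 2.80 to 3.34 without the 4 most counted IDs in the total, at 1.82 to 2.27 with them and at 1.46 to 2.23 with TMM totals, above the other near-silent IDs in each panel. The IDs that are not near-silent lie at 0.954 to 0.958, 0.623 to 0.651 and 0.500 to 0.638 in the same order.

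Depth moved along with these values. The wells of col concentrations 2 to 4 held 23.6% to 67.1% of the median total of their library. Outside col and the groups that chose the IDs, the highest near-silent share was 5.56% at dic concentration 4, in 3 wells of 41711 to 50205 counts. The next was 4.65% at dip concentration 8, the lowest of that chemical, in 3 wells of 104003 to 126822 counts. The part of depth in the rise of the 59 and of the other near-silent IDs was not tested. ENSOMYG00000004695 was at 0 in these 2 groups.

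**Figure D5:**
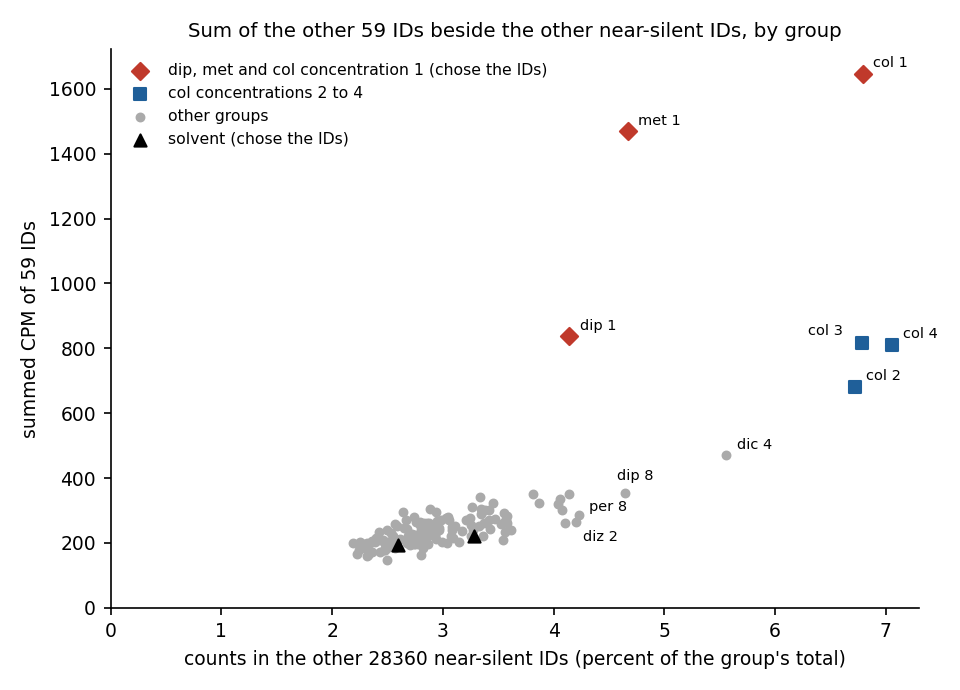
Summed CPM of the 59 IDs (y axis) against the share of counts in the other near-silent IDs (x axis, percent), 1 point per group of kept wells over 149 groups; diamonds and triangles are the groups that chose the IDs. Col concentrations 2 to 4 lie at 6.72% to 7.06% and 681 to 815 CPM, dic concentration 4 at 5.56% and 472 CPM, and the solvent groups at 2.59% and 3.28%.

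In dip and met the sum of the 59 at concentration 2 overlapped with that of the lower concentrations. Dip concentration 2 had 402, 320 and 144 CPM, against 119 to 416 CPM at concentrations 6 to 8, a ratio of 1.24. Met concentration 2 had 93.8, 389 and 312 CPM, against 131 to 411 CPM at concentrations 6 to 8, a ratio of 1.01. Of the 60, 34 (56.7%) were higher at dip concentration 2, where 43.0% of 14588 other near-silent IDs with a count were. At met concentration 2, 28 (46.7%) were, against 34.8% of 15483. These shares are not like for like, since the 60 were taken from IDs near the solvent limit. At dip concentration 2, 6814 of the others and 11 of the 60 had no count. At met concentration 2, 8940 and 21 had none. Among the IDs that are not near-silent the shares were 49.0% at dip concentration 2 and 43.5% at met concentration 2. Over concentrations 2 to 5 of dip and met the ratio of the 59 ran from 0.807 to 1.24, and that of the other near-silent IDs from 0.699 to 1.08.

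At concentration 1, where the members were chosen, the sum of the 59 was 859, 782 and 944 CPM in the dip wells, 1639, 921 and 1735 CPM in the met wells and 1423 and 1930 CPM in the col wells, against 115 to 484 CPM in the solvent wells of batch 1 and 127 to 297 CPM in those of batch 2. The other near-silent IDs took 4.14% of counts at dip concentration 1, 4.67% at met and 6.79% at col, against 3.28% and 2.59% in the solvent wells of batches 1 and 2. A dip well showed 45 to 58 of the 60, a met well 23 to 46 and a col well 36 to 38, and in dip and met the deeper wells showed more of them. The pooled sums were 838 CPM at dip concentration 1 and 1468 CPM at met concentration 1, against 301 CPM at dip concentration 2 and 246 CPM at met concentration 2; the first of each pair chose the IDs, so these differences carry no test.

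Among the 16 other chemicals, the sum of the 59 stayed near the own low level in most groups. Over 76 groups its ratio ran from 0.711 to 2.07 with a median of 0.985, and 2 groups lay above 1.5. Dic concentration 4 had a ratio of 2.07 (302 to 675 CPM by well, against 146 to 310 at its lowest concentrations). Smet concentration 2, the highest with kept wells, had 1.80 (222 to 692 CPM, against 130 to 287). For the other near-silent IDs the ratio in the 76 groups ran from 0.744 to 1.94 with a median of 0.997. There 1 group, dic concentration 4, lay above 1.5, and smet concentration 2 was at 1.41.

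Which IDs entered the list depended on how it was drawn. With a solvent limit of 2 CPM in place of 5, 1 of the 60 stayed among the first 60. With the median CPM over wells in place of summed counts, 11 stayed. Leaving out replicate 1, 2 or 3 in every group kept 13, 27 and 15 of the 60.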

How the data were processed

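The authors deposited 1 table per chemical of raw counts, whole numbers by Ensembl gene ID, whose sums differ between wells as unscaled counts do. Per the labels' protocols, libraries were made with a QIAseq UPXome kit, pooling up to 24 wells. The sources used here do not give the aligner, the counter or the annotation, so reads shared by near-identical copies may be split. Solvent wells recur in each chemical's table: 381 repeated columns, of which 0 differed. From the labels, 24 wells of 1 chemical were not analysed here. Columns were matched to samples by library and well.

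Wells under 24095 counts (14 wells, 1809 to 22101 counts) and the 4 most counted IDs were dropped. The members, lists, named IDs and tests were chosen with earlier results of these data known; the named IDs were to be the 2 with the largest minimum CPM, since none had a gene name, and called members are named as such. Planned pathway and marker lists could not be applied.

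Tests used edgeR 4.0.16 (quasi-likelihood, TMM, filterByExpr with min.count 3 and min.total.count 15, two-sided, Benjamini-Hochberg FDR below 0.05 over all IDs tested) in R 4.3.3, fitted without concentration 1, because the rule used the solvent wells and concentration 1. For dca, which had 5 concentrations diluted 2-fold, concentrations 4 and 5 (12 wells) were the reference and batch was a term. The scripts were tested on simulated counts. Alternatives were DESeq2 1.42.0, other filters (none, or min.count 10), lists, references and totals, wells thinned to at most 48190 counts, the passage as a block and each replicate left out. Tables and figures used Python 3.11.15, pandas 2.3.3, scipy 1.17.1 and matplotlib 3.10.9. Intervals and limits cover counting error only.

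Per the design text each replicate number is a cell passage, on a plate of its own, so the numbers pair the wells. Deviations from group means over 2566 IDs correlated by a median of 0.0594 in col, 0.119 in dip and 0.193 in met between wells of a passage, and by -0.0378, -0.0562 and -0.0965 between passages. Deviations cancel over the wells of a group, so the values between passages tend to be negative when those within a passage are positive. They add no separate evidence of pairing.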

Additional observations from a re-analysis of the deposited data

Results flagged for a closer look

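In the wells under the minimum total, ENSOMYG00000004695 and the sum of the other 59 were summed by group and read by exact 95% counting intervals. For 11 of these group sums, taken over both measures, the lower end lies above the upper bound of the pooled solvent level. That bound covers counting error and not the spread between solvent wells. The rule also chose the IDs for low values in these solvent wells, so lying above the bound is no test of an exposure. The 14 wells under the minimum total enter no comparison above. In these wells ENSOMYG00000004695 had 333 CPM in clp concentration 1 (6 counts, exact 95% interval 122 to 724), 460 CPM in smet concentration 1 (3 counts), 554 CPM in smet concentration 3 (8 counts) and 411 CPM in thx concentration 1 (5 counts), against 0.758 CPM over all solvent wells (upper bound 1.94). It had 898 CPM in col concentration 3 (4 counts), 220 CPM in col concentration 4 (2 counts) and 151 CPM in dic concentration 3 (1 count, interval 3.81 to 839). It was seen in 9 of the 14 wells, and 3 of these 7 groups were at the highest concentration of their chemical. The sum of the other 59 IDs was 1165 CPM in clp concentration 1 (21 counts), 772 CPM in col concentration 4 (7 counts), 628 CPM in dca concentration 1 (11 counts) and 739 CPM in thx concentration 1 (9 counts), against 208 CPM over all solvent wells (upper bound 221). The highest solvent well lay above the lower interval ends of this sum in col concentration 4, dca concentration 1 and thx concentration 1. No kept well of clp concentration 1 or smet concentration 1 exists for comparison, and the low totals of these wells go with both values. The part of the totals in them was not tested.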

How the results depend on the processing

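The calls among the 60 rest mainly on ENSOMYG00000004695, which kept its call under 10, 9 and 10 of 11 other settings at col concentrations 2, 3 and 4, with adjusted p from 1.63e-09 to 0.312, 5.53e-16 to 1.00 and 5.78e-28 to 0.233. With DESeq2 0 members were called at col concentrations 2, 3 and 4. With the list by median CPM, 3 were called at concentration 2 and 3 at concentration 3, beside 2.05% and 3.35% of all tested IDs. In that list 13 members passed the filter, against 6 of the main list. The counts below that have no share of all tested IDs beside them only check the main counts. At concentration 3 the count was 3 with the replicate block and 2 with all wells kept. At concentration 4 it was 1 with the first 30 members, a solvent limit of 2, no filter, the default filter or thinned wells. It was also 1 with the lowest concentration alone as reference. The trend count in col was 1 with the first 30, the limit of 2, the default filter, thinned wells and each replicate left out. The first 30 and the limit of 2 share the main fit, with 3.26% of all tested IDs called higher at concentration 4 and 4.13% in the trend. The default filter called 280 of 1744 tested IDs higher at concentration 4 and 383 in the trend. With a replicate left out, ENSOMYG00000020635 was not tested. At concentrations 2, 3 and 4 the count was 1 each without replicate 2, which has no kept well there. Without replicate 1 or 3, 1 exposed well per concentration remained, so the spread between exposed wells could not be measured. ENSOMYG00000004695 then had log2 fold changes of 6.36, 0 and 8.56 without replicate 1 at concentrations 2, 3 and 4. Without replicate 3 they were 7.00, 8.21 and 7.98. These settings are also among the 11 above. Against the solvent wells the counts were 3 at concentration 3 and 1 at concentration 4, which are no test, since the rule used those wells. The block moved no other count of members by over 1.5 times, but over all IDs it called 51 higher against 21 without it at dip concentration 2, 44 against 22 in the dip trend, 34 against 10 at met concentration 2, 14 against 7 in the met trend and 243 against 89 in the 16 other chemicals.

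In dip and met 0 members were called in all 56 alternatives. With the default filter or the list with a solvent limit of 2, 0 members were tested there, so those counts could only be 0. The 56 also include fits against the solvent wells, which are no test. In the 16 other chemicals the count was 0 in 14 of 15 alternatives and 1 with all wells kept, where it was ENSOMYG00000004695 in clp concentration 1. That call rests on wells under the minimum total, and its share of all tested IDs is not given here. DESeq2's size factors set the median log2 fold change of all tested IDs 1.08, 0.74 and 0.52 above that of TMM at col concentrations 2, 3 and 4. Calls over all IDs were 148 higher and 778 lower by edgeR and 341 higher and 215 lower by DESeq2 at concentration 2, 242 and 775 against 359 and 253 at concentration 3, and 235 and 648 against 270 and 250 at concentration 4.

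The summed level of the 60 was 1014 CPM in dip 1, 1687 in met 1, 2038 in col 1, 882, 1040 and 1316 in col 2, 3 and 4, and 221 and 195 in the solvent wells of batches 1 and 2. With the 4 most counted IDs kept it was 590 in dip 1, 865 in met 1, 813 in col 1, 310, 382 and 471 in col 2, 3 and 4, and 131 and 99.1 in the solvent wells of batches 1 and 2, and with TMM totals 1166 in met 1, 1294 in col 1, and 504, 685 and 966 in col 2, 3 and 4. With each replicate left out it ran from 954 to 1111 in dip 1, 1473 to 1976 in met 1, 1798 to 2341 in col 1, 654 to 1129 in col 2, 600 to 1553 in col 3 and 943 to 1564 in col 4. Depth limits the single IDs: at col concentrations 1 to 4, 3 counts in a well are 58.7 to 125 CPM.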

Other observations

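Of all IDs, the one whose level was most like that of ENSOMYG00000004695 was another near-silent ID outside the 60, chosen after its values were seen, with Pearson's r of 0.817 on log2(CPM + 1) over 149 groups that share depths and batches. The next IDs, which were not near-silent, had r of 0.785, 0.777 and 0.775. The near-silent one had 373 CPM at met concentration 1, with 0 to 652 CPM by well, and 307 at col concentration 1. At col concentrations 2, 3 and 4 it had 301, 253 and 411 CPM. It was at 0 at dip concentration 1, col concentration 5 and in both solvent groups. The 0 at dip concentration 1 kept it out of the list.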
